A study of Mus musculus with 8 samples.

Results

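The MHC class II genes, their chaperone Cd74 and their transactivator Ciita were examined in plasmacytoid dendritic cells (pDC). The 10 genes H2-Aa, H2-Ab1, H2-Eb1, H2-DMa, H2-DMb1, H2-DMb2, H2-Oa, H2-Ob, Cd74 and Ciita were chosen by name, out of 36095 genes and loci on the array, and were read from 13 probes. Levels in 4 samples of Sca-1+ pDC were compared with those in 4 samples of Sca-1- pDC. Both came from bone marrow of female BALB/c mice, differentiated in vitro with Flt3 ligand (mFlt3-L) and sorted magnetically and by flow cytometry, with no further treatment named. The age of the mice, the gates of the sort and whether the replicates are separate cultures or animals are not given in the sources used here, so the p-values speak for the scatter among these 8 samples, part of which may be technical. RNA was hybridised to single-colour Agilent arrays, 1 per sample, and each slide carried the Sca-1+ and Sca-1- samples of one replicate number.

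MHC class II molecules are pairs of an alpha and a beta chain that carry peptides from endosomes to the cell surface, where CD4+ T cells read them. Cd74, the invariant chain, fills the groove of new pairs. The H2-DM heterodimer removes its last fragment, CLIP, and edits the peptides, and the H2-O heterodimer inhibits H2-DM. Ciita binds no DNA itself but is recruited to class II promoters by factors sitting on the X and Y boxes, and it controls how much class II is made. pDC carry class II at a lower level than conventional dendritic cells and keep making it after activation.

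The promoters are shown first because the genes that Ciita serves share these boxes. The RefSeq promoter table (GRCm38.p6) held 8 windows, from 250 bases before to 50 after a gene start, for 7 of the 10 genes. H2-DMa had 2 windows, and H2-Ab1, Cd74 and Ciita had no entry. In the stretches below, capitals mark GNAAC, part of an X-box-like match, and ATTGG, the Y-box core.
H2-Eb1 (chr17:34305762-34305841, + strand): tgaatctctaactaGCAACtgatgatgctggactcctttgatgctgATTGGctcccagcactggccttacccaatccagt
H2-Aa (chr17:34287849-34287928, - strand): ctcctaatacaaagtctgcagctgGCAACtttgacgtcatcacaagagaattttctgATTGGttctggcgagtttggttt
H2-Ob (chr17:34238800-34238879, + strand): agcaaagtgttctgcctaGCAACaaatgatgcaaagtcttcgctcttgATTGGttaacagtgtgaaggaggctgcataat
H2-Oa (chr17:34092274-34092353, + strand): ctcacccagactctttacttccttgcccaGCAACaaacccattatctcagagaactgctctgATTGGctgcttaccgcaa
H2-DMb1 (chr17:34153086-34153165, + strand): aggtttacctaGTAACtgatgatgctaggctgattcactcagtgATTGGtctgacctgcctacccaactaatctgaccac
H2-DMb2 (chr17:34145144-34145223, + strand): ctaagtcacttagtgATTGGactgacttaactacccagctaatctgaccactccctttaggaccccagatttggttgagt

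GNAAC followed after 25 to 28 bases by ATTGG occurred in 5 of the 8 class II windows. These were the windows of H2-Oa, H2-DMb1, H2-Ob, H2-Aa and H2-Eb1, each with the match on the gene's strand. Counted on either strand, the class II share was also 5 of 8, against 0.712% of all 32851 windows in the table (234 windows). ATTGG alone, also counted on either strand, stood in 7 of the 8 windows, against 37.4% of all windows. The letters and the spacing were picked with these sequences in view, and a match is a description of the letters only.

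Each level below is the log2 signal of a gene's brightest probe minus the 75th percentile of all probes on that array, so it compares arrays and not genes. A gene was tested if 4 or more of the 8 arrays showed its probe well above background, and it is called where the Benjamini-Hochberg adjusted p of limma's unpaired fit over all 19818 tested genes was under 0.05. Between 45.9% and 54.9% of spots were well above background per array. That 75th percentile lay at a signal of 166 to 396 on Sca-1+ arrays and 152 to 434 on Sca-1- arrays, and was highest on slide 4 in both groups. Slide 4 stood apart across all genes: its samples deviated from their group means against the other group's replicates 1 to 3 (r across genes -0.39 to -0.72) and together with each other (0.89). Deviations from a group's own mean cancel out within the group. The negative values therefore follow in part from the 0.89 and are not separate evidence. Ly6a, which encodes Sca-1, had a level of 7.43 ± 0.28 in Sca-1+ pDC and 2.78 ± 0.44 in Sca-1- pDC (SD, n = 4 each), as the labels imply. In bulk samples, fewer cells making a transcript and less of it per cell cannot be told apart.

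Of the 10 genes 9 were tested, and 8 of these had higher mean levels in Sca-1+ pDC, as 55.4% of all tested genes did, while H2-DMa had a lower one. Only H2-Eb1 was called, as higher, against 0.126% of all tested genes called higher (25 genes) and 1.71% called in either direction. An unadjusted p under 0.05 was found for 7 of the 9, all higher, against 3.12% of all genes. The median difference of the 9 was 0.83 on the log2 scale, against 0.03 over all tested genes. Because same-numbered samples shared a slide and deviated together, the fit was repeated with the slide as a block. It called 6 of the 9 higher, H2-Aa, H2-Eb1, H2-DMb1, H2-Oa, H2-Ob and Cd74, against 2.1% of all genes called higher and 6.22% called in either direction. The blocked count was 3 when every probe was tested on its own (H2-Eb1, H2-Ob and Cd74) and 0 with no filter on dim probes. All 8 genes with a higher mean were higher on each of the 4 slides, which 18.4% of tested genes were. Groups that did not overlap, with every Sca-1+ array above every Sca-1- array, were found for 4 genes, H2-Ab1, H2-Eb1, H2-Oa and Ciita, against 1.91% of all genes.

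**Figure D1:**
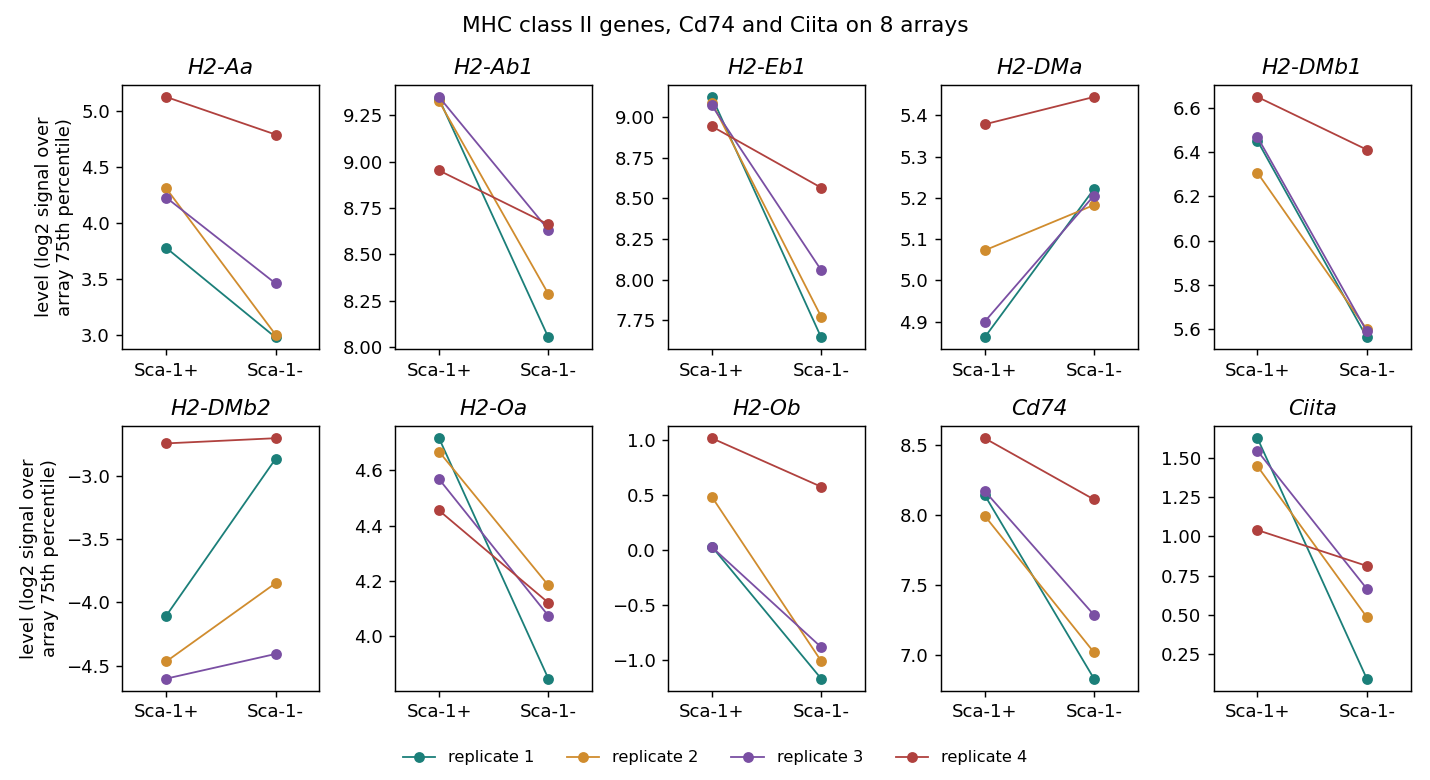
Level of each gene's main probe (y axis, log2 signal over the array's 75th percentile) in Sca-1+ (left) and Sca-1- (right) pDC, with lines joining samples on one slide and a separate y scale per gene. Lines fall toward Sca-1- for 8 genes and rise for H2-DMa and H2-DMb2, and the slide 4 line is the flattest in each panel. H2-DMb2 was above background on 1 Sca-1+ and 2 Sca-1- arrays.

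The classical chains form the I-A and I-E molecules that present peptides. H2-Eb1, the I-E beta chain (probe at chr17:34453075-34453134, mm9), had levels of 9.12, 9.09, 9.07 and 8.94 in Sca-1+ replicates 1 to 4, against 7.64, 7.77, 8.06 and 8.56 in Sca-1- replicates 1 to 4. Its Sca-1+ samples lay close together, and its Sca-1- samples were spread widely below them without overlap. The log2 difference was 1.05 ± 0.20 SE (2.06-fold, limma adjusted p = 0.0465; 0.0387 with the slide as a block). The call ended when any 1 array other than Sca-1- replicate 4 was left out (adjusted p up to 0.169), and it held without that array (0.00535).

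H2-Ab1, the I-A beta chain (chr17:34406305-34406363), had levels of 9.34, 9.33, 9.35 and 8.95 in Sca-1+ pDC and 8.05, 8.29, 8.63 and 8.66 in Sca-1- pDC. The groups did not overlap, although Sca-1+ replicate 4 was the lowest of its group and Sca-1- replicate 4 the highest of its own. The difference of 0.83 (95% interval 0.42 to 1.25) missed the threshold in limma's unpaired fit (adjusted p = 0.0760) and with the block (0.0518). A second H2-Ab1 probe that shares 51 genome positions with the first gave 0.78, so it is not an independent reading.

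H2-Aa, the I-A alpha chain (chr17:34421285-34421344), had levels of 3.78, 4.31, 4.22 and 5.12 in Sca-1+ pDC, against 2.98, 3.00, 3.46 and 4.79 in Sca-1- pDC. Sca-1- replicate 4 was above 3 of the 4 Sca-1+ samples, so the groups overlapped, yet Sca-1+ was higher on each slide. The difference was 0.80 with an interval of -0.21 to 1.81 (limma, adjusted p = 0.748), and 0.40 to 1.20 with the slide as a block (adjusted p = 0.0485). Unlike H2-Eb1 and H2-Ab1, H2-Aa was highest on slide 4 in both groups.

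Cd74 had levels of 8.14, 7.99, 8.17 and 8.55 in Sca-1+ pDC and 6.83, 7.02, 7.28 and 8.11 in Sca-1- pDC. Sca-1- replicate 4 again reached into the range of the Sca-1+ samples. The difference was 0.91 (interval 0.27 to 1.54, limma adjusted p = 0.260), and the block gave an adjusted p of 0.0302.

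H2-DMb1, the beta chain of the peptide editor (chr17:34297109-34297168), had levels of 6.45, 6.31, 6.47 and 6.65 in Sca-1+ pDC, against 5.56, 5.60, 5.59 and 6.41 in Sca-1- pDC. Sca-1- replicates 1 to 3 were nearly equal and Sca-1- replicate 4 stood among the Sca-1+ values. The difference was 0.68 (interval 0.19 to 1.16, limma adjusted p = 0.265; 0.0442 with the block). H2-DMa, its alpha chain, whose probe spans chr17:34274300-34274863, had levels of 4.86, 5.07, 4.90 and 5.38 in Sca-1+ pDC and 5.22, 5.18, 5.21 and 5.44 in Sca-1- pDC. Its within-slide differences were -0.36, -0.11, -0.31 and -0.07, all negative, and the difference of -0.21 was not called (interval -0.56 to 0.14, limma adjusted p = 0.907; 0.215 with the block).

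The mean differences of the H2-DM chains thus had opposite signs. The log2 ratio of H2-DMb1 to H2-DMa was 1.42 ± 0.19 in Sca-1+ pDC and 0.53 ± 0.29 in Sca-1- pDC (SD, n = 4 each), a difference of 0.89. Within slides 1 to 4 the differences were 1.25, 0.82, 1.18 and 0.30. This ratio was chosen because the signs were seen to differ, so it restates them. An exact permutation test was run on the ratio, but its p-value is not read here because of that choice. The ratio's own value depends on both probes, so only its difference between groups is read. H2-DMb2, a close copy of H2-DMb1, was well above background on 1 Sca-1+ and 2 Sca-1- arrays and was not tested. Its levels were -4.11, -4.47, -4.60 and -2.74 in Sca-1+ pDC, against -2.86, -3.85, -4.41 and -2.70 in Sca-1- pDC. The H2-DMb2 probe gave signals of 8.24 to 66.9, and the H2-DMb1 probe 7380 to 39760 on the same arrays. The H2-DMb2 probe thus read little of the H2-DMb1 transcript. Since these copies are near-identical, how far the H2-DMb1 probe reads H2-DMb2 is uncertain.

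H2-Oa, the alpha chain of the DM inhibitor (chr17:34232033-34232092), had levels of 4.72, 4.67, 4.57 and 4.45 in Sca-1+ pDC and 3.85, 4.18, 4.07 and 4.12 in Sca-1- pDC. The groups did not overlap, and the difference was 0.54 (interval 0.25 to 0.84, limma adjusted p = 0.112; 0.0477 with the block). H2-Ob, its beta chain (chr17:34382790-34382849), had levels of 0.03, 0.49, 0.03 and 1.02 in Sca-1+ pDC, against -1.17, -1.01, -0.88 and 0.58 in Sca-1- pDC. Sca-1- replicates 1 to 3 lay well below all Sca-1+ samples, and Sca-1- replicate 4 lay among the Sca-1+ samples. The difference was 1.01 (interval 0.08 to 1.94, limma adjusted p = 0.481; 0.0352 with the block). A second H2-Ob probe, whose sequence spans 369 bases of genome, gave 0.26, and the remaining probe was not above background on any array, so the size of this difference depends on the probe.

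Ciita had levels of 1.63, 1.45, 1.55 and 1.04 in Sca-1+ pDC and 0.09, 0.49, 0.67 and 0.81 in Sca-1- pDC. All Sca-1+ samples were above all Sca-1- samples, with the narrowest gap on slide 4. The difference was 0.90 (interval 0.44 to 1.36, limma adjusted p = 0.0845; 0.0663 with the block), 1.87-fold. The single Ciita probe lies at chr16:10526568-10526627 (mm9) and holds 8 CAAAA units in 60 bases, the most of any of the 55681 probes; its bases 14 to 43 show the repeat.
Ciita probe, bases 14 to 43: CAAAACAAAACAAAAcgaaaCAAAACAAAA
Of 8 other probes with 4 or more such units, 6 were tested, and all 6 were higher in Sca-1+ pDC (0.05 to 0.66 log2, median 0.38), below Ciita's difference. Of all tested genes 55.4% had a positive difference, with a median of 0.03 and a 90th percentile of 0.34. The median of these 6 probes thus lay above the 90th percentile of all genes. Whether cross-hybridisation through this repeat contributed was not tested.

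**Figure D2:**
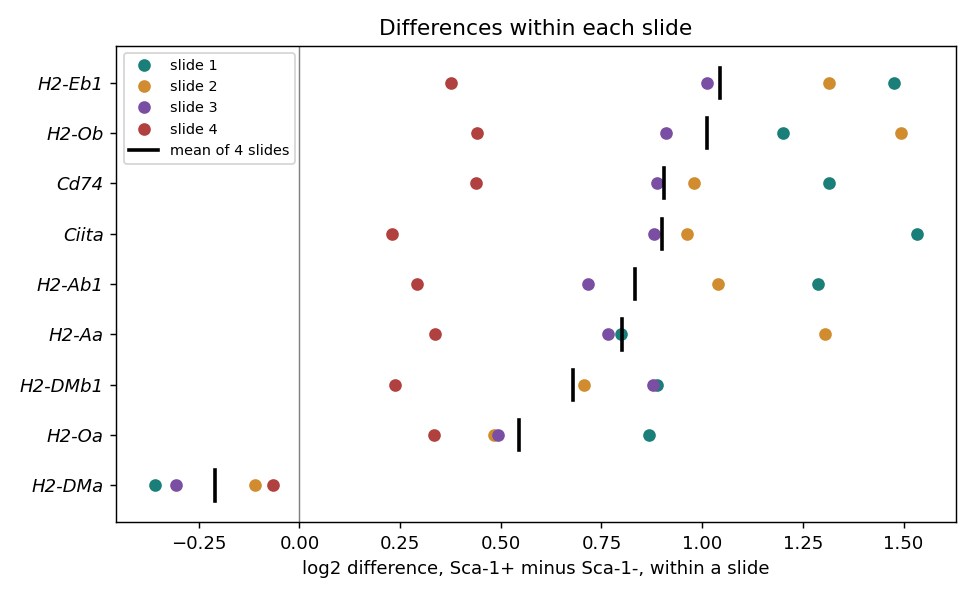
Log2 difference, Sca-1+ minus Sca-1-, of each tested gene within each slide (points) and the mean over 4 slides (bar). Slide 4 holds the smallest difference of all 8 higher genes (0.23 to 0.44), against 0.48 to 1.53 on slides 1 to 3.

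The class II differences were smallest on slide 4. On slides 1 to 3 the differences of the 8 higher genes ranged from 0.48 to 1.53, and on slide 4 from 0.23 to 0.44. The median over the 9 tested genes was 1.20, 0.98, 0.88 and 0.33 on slides 1 to 4, against 0.07, -0.04, 0.02 and 0.01 for all tested genes. With both slide 4 samples left out, 8 of the 9 were called in the unpaired fit and 7 with the block. Of all 19818 tested genes, 264 and 314 were then called higher. Leaving out any of slides 1 to 3 left 0 of the 9 called in either fit. For slides 1, 2 and 3 in turn, the calls over all genes in either direction were then 1, 2 and 29 unpaired. With the block they were 429, 556 and 292.

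Along chromosome 17 the class II genes lie among neighbours with other roles. H2-Ea, the I-E alpha chain, is silent in mice of the H2-b haplotype and carries a pseudogene name on the array, but BALB/c mice express it. Its difference was 0.92, with groups that did not overlap (limma, adjusted p = 0.125; 0.0420 with the block). The proteasome and peptide transporter genes between the class II genes, which serve class I, differed by 0.03 to 0.10 (Psmb8 0.03, Psmb9 0.04, Tap1 0.07, Tap2 0.10). The chromatin reader gene Brd2 differed by 0.14 and Btnl2 by 0.01, and none of these 6 was called in either fit. H2-Eb2 was above background on 0 Sca-1+ arrays and 1 Sca-1- array and was not tested.

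**Figure D3:**
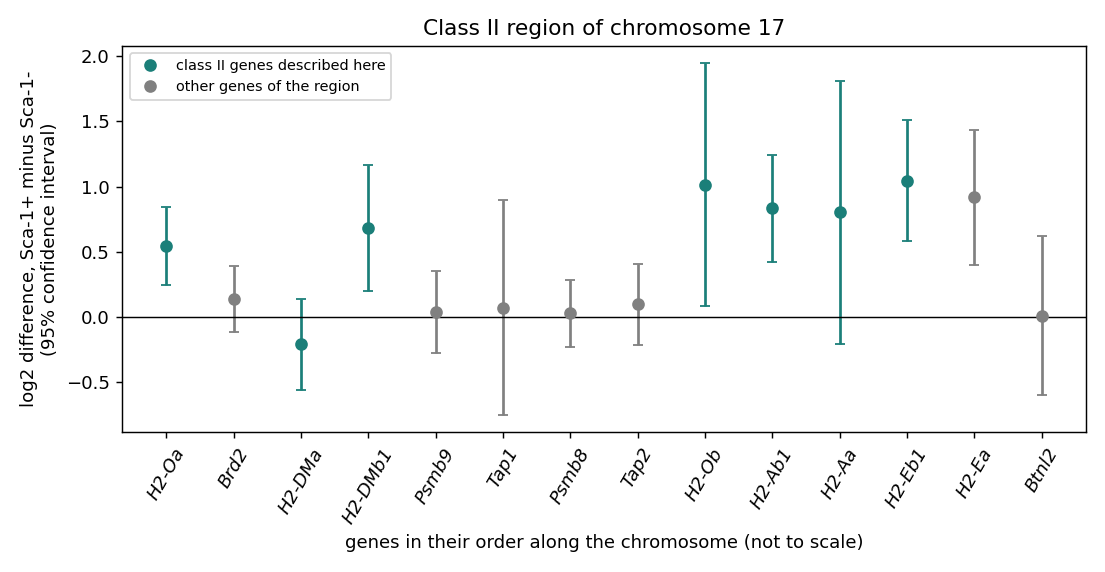
Log2 difference, Sca-1+ minus Sca-1- (y axis), of the tested genes in the class II region, in chromosomal order and not to scale, with 95% confidence intervals of the unpaired fit. Class II genes (teal) and H2-Ea lie between 0.54 and 1.05 except H2-DMa, while the other neighbours lie between 0.01 and 0.14.

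**Figure D4:**
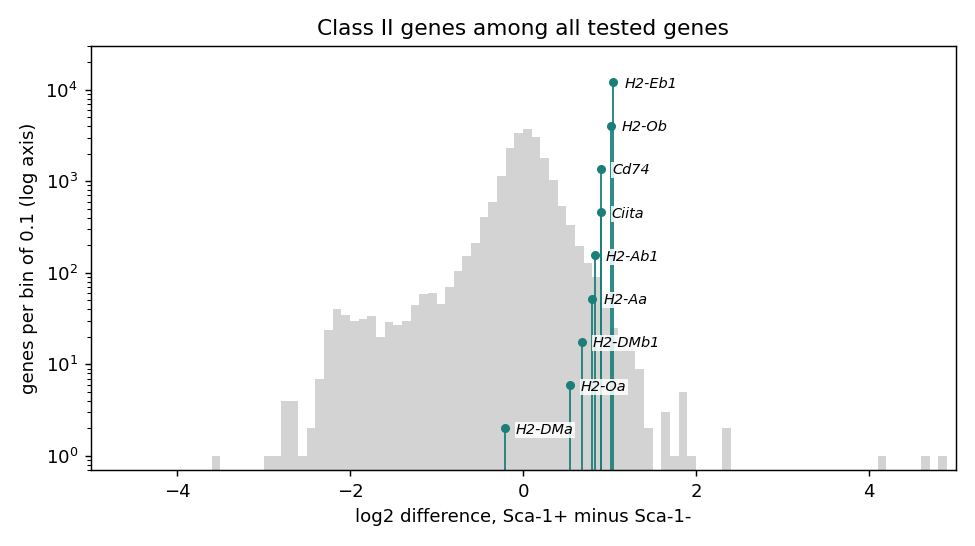
Distribution of log2 differences over 19818 tested genes (grey, log count axis), with the 9 tested class II genes marked by lines whose heights carry no value. The class II genes from H2-Oa at 0.54 to H2-Eb1 at 1.05 lie in the upper tail, and H2-DMa lies at -0.21.

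Genes for the factors that recruit Ciita came next. Of 8 promoter-factor genes 0 were called by limma in either fit and 0 had an unadjusted p under 0.05, with a median difference of -0.16. Nfya, a subunit of the Y-box factor, differed by -0.74 (adjusted p = 0.794), Creb1, which binds beside the X box, by -0.26, and Rfx5, the DNA-binding subunit of the X-box complex, by 0.50. Of 12 genes known to regulate Ciita transcription 0 were called in either fit, 0 had an unadjusted p under 0.05, and their median was 0.04; Spi1 differed by -0.36. Of 9 genes that supply peptide or process Cd74, 0 were called unpaired (2 at an unadjusted p under 0.05) and 1 with the block. That gene was Ctsl, a cysteine protease of endosomes, which differed by 0.44 (limma, adjusted p = 0.398; 0.0404 with the block). Ctsb differed by 0.36 and Ctss, which cuts the invariant chain, by 0.27. In the other direction, Ifi30, which reduces disulfide bonds of antigens, differed by -0.47 (limma, adjusted p = 0.741; 0.0682 with the block) and the protease gene Lgmn by -0.41. Of 7 tested genes of class II ubiquitylation and traffic 0 were called in either fit and 0 had an unadjusted p under 0.05; Marchf1, the ligase that ubiquitylates class II, differed by 0.18 and Marchf8 by -0.44. Of 6 tested costimulation genes 0 were called unpaired (2 at an unadjusted p under 0.05), and Cd274 (0.75, adjusted p = 0.521; 0.0429 with the block) was called with the block, while Tnfsf9 differed by -1.34 without a call.

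Markers of other cells were read alongside. The pDC markers Siglech (0.25) and Bst2 (0.20) were high in both groups, and 0 of 12 pDC genes was called unpaired (1, Klk1 at 0.81, had an unadjusted p under 0.05). With the block, Ccr9 (0.55, adjusted p = 0.0495) was called higher. Among 8 tested conventional dendritic cell genes, Zbtb46, their lineage factor, differed by -1.20 (limma, adjusted p = 0.470; 0.0131 with the block), while Sirpa (0.54) and Itgae (0.97) were higher with the block (0.0420 and 0.0162). The summed level of all 11 such genes on the array, in units of each array's 75th percentile, was 134 to 155 in Sca-1+ samples. In Sca-1- samples it was 128 to 153. Itgax had the highest mean level of them (6.14 in Sca-1+ and 6.35 in Sca-1- pDC), so the sum says little about dim members such as Zbtb46 (-3.22 and -2.01). The sum over B cell markers was 171 to 195 in Sca-1+ samples and 124 to 169 in Sca-1- samples without overlap. Of 10 B cell markers on the array 6 were tested and 0 called in either fit (2 at an unadjusted p under 0.05, Cd22 at 0.46 and Blnk at 0.35), and Ms4a1 and Pax5 were not above background on any array. The monocyte and macrophage sum was 16.7 to 24.9 in Sca-1+ samples and 29.5 to 40.5 in Sca-1- samples, also without overlap, and 0 of 4 tested genes was called unpaired. Csf1r, the receptor of the macrophage growth factor, differed by -1.19 (limma, adjusted p = 0.171) and was called lower with the block (0.00637), and Cd14 differed by -0.52. Cd68, a lysosomal protein of macrophages, differed by 0.47 (limma, adjusted p = 0.734) and was positive on all 4 slides, and Lyz2 differed by -0.08, so these 4 markers did not share a direction. Among T and NK cell markers Thy1 was called lower (-1.80, limma adjusted p = 0.0481; 0.00126 with the block), and Cd3e differed by 0.18. Mature dendritic cell genes summed to 21.6 to 44.9 in Sca-1+ samples and 11.2 to 40.4 in Sca-1- samples, and 0 of 4 tested were called unpaired. Il4i1 had the highest mean level of them (4.65 in Sca-1+ and 3.71 in Sca-1- pDC). It differed by 0.94 and was called with the block (limma, adjusted p = 0.0313). Ccr7 differed by -0.57, with within-slide differences of -0.44, 0.02, 0.33 and -2.17, so its mean rested mostly on slide 4. Basophil genes summed to 0.344 to 22.3 in Sca-1+ samples and 0.386 to 17.8 in Sca-1- samples, and in both groups the lowest sum was on slide 4. Mcpt8 differed by -0.09. Its levels were 3.59, 1.28, 1.90 and -4.27 in Sca-1+ replicates 1 to 4. In Sca-1- replicates 1 to 4 they were 3.15, 1.39, 2.43 and -4.09. The part of these cells in the class II differences was not tested.

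Genes closest to the class II pattern were found by the root mean square distance between centred levels over 8 arrays, among 17667 candidates. The median distance to the mean of the 3 classical chains was 0.613. Nearest to the mean of H2-Aa, H2-Ab1 and H2-Eb1, after an unnamed locus, were BC064822 (0.114), the actin regulator gene Evl (0.124), Gm5547 (0.127) and the transcription elongation factor gene Ell2 (0.134). Of the class II genes left out of that mean, Cd74 was at 0.130, H2-DMb1 at 0.184, Ciita at 0.278 and H2-DMa at 0.609, close to the median candidate. Nearest to Ciita were Duxbl2 (0.154), Peg13 (0.162), 4932415M13Rik (0.175), an unnamed locus and Clec2i (0.187), while H2-Ab1 was nearer than all of them at 0.081. The other tested class II genes were farther from Ciita than H2-Ab1. H2-Eb1 was at 0.183, H2-Oa at 0.247, H2-DMb1 at 0.318 and Cd74 at 0.360. H2-Ob was at 0.584, H2-Aa at 0.638 and H2-DMa at 0.653.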

How the data were processed

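The authors' scanner files give linear spot intensity, background-corrected by Agilent Feature Extraction 10.7.3.1, and place probes on mm9, per the file headers. The deposited series table holds the authors' log2 values, with a median of 3.90 in each column; it was used as an alternative. Per the labels, RNA was amplified and labelled with Cy3, and a separate amplification of polyA RNA is also named.

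Control and outlier spots were left out, no spot was saturated, log2 values of repeated spots were averaged, and each array's 75th percentile over probes was subtracted. Each of 36095 genes was read from its brightest probe. The comparison used limma 3.58.1 in R 4.3.3 (two-sided, unpaired, Benjamini-Hochberg over 19818 genes, threshold 0.05), with version 1.17.8 of data.table; figures were made with matplotlib 3.10.9 (Python 3.11.15, pandas 2.3.3, numpy 2.4.6). Same-numbered arrays share a slide, per the file headers, and their deviations from group means correlated at 0.44, 0.43, 0.64 and 0.89, each above the 0.1 set for pairing. Arrays of different numbers among 1 to 3 also correlated, at 0.12 to 0.54, so the threshold does not tell pairs from other combinations there. Every slide had its Sca-1+ sample in position 2 and its Sca-1- sample in position 1, so position and group cannot be told apart. The arrays' number limits the precision. The array was designed on reference transcripts, and BALB/c alleles were not checked.

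The genes, lists and rules were chosen with earlier results of these data known. Named genes are the 10 class II genes, of each list those called and the 2 with the smallest adjusted p, fixed defining markers, and the 5 genes nearest in pattern to the classical chains and to Ciita, some of which are not reported here; genes named for the blocked fit, Rfx5, Ctss, Ifi30, Lgmn, Cd68, Lyz2, Pax5 and the H2-DM ratio were picked after their values were seen. Promoters come from RefSeq (GRCm38.p6). The fit was tested on simulated data.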

Additional observations from a re-analysis of the deposited data

Results flagged for a closer look

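In groups of 4 samples, 4 of 20 gene and group combinations had 1 sample whose gap to its nearest neighbour, as a share of the group's range, passed Dixon's 95% critical value; chance flags about 1 in 20. All 4 were replicate 4 samples. H2-Ab1 was lowest in Sca-1+ replicate 4, with a share of 0.941. H2-DMb1 was highest in Sca-1- replicate 4, with a share of 0.957, as were H2-DMa at 0.852 and H2-Ob at 0.836.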

How the results depend on the processing

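With the replicate block 6 class II genes and 1233 genes in all were called, against 1 and 339 without it. Quantile normalization, normexp, no filter on dim probes, every probe on its own and the deposited table each gave 0 class II calls (unadjusted p under 0.05 in limma: 7 of 9 in the fit as reported), and no filter gave 182 calls in all. The H2-Eb1 call ended under these 5, with adjusted p of 0.440, 0.131, 0.162, 0.0534 and 0.442. Leaving out 1 array gave 0 to 4 class II calls, with 4 without Sca-1- replicate 4, and 163 to 463 calls in all. Leaving out both samples of a replicate number gave 0, 0, 0 and 8 class II calls and 1, 2, 29 and 879 calls in all for numbers 1 to 4. Alternatives added after seeing the data kept the replicate block. Without numbers 1 to 4 they gave 0, 0, 0 and 7 class II calls and 429, 556, 292 and 941 in all; with the percentile over detected probes 5 and 1274; with normexp 8 and 2130; with quantile normalization 6 and 1261; with no filter 0 and 312; above background on all 8 arrays 8 and 1717; with the mean over probes 6 and 1216; with every probe on its own 3 and 1377; with the deposited values 6 and 1244. The causes were not tested. No class II difference changed sign: over the 33 alternatives the median of the tested class II genes stayed between 0.69 and 1.01, and each of the 8 higher genes stayed higher. H2-DMa stayed lower (-0.32 to -0.15) and was called in none. The median over all genes, 0.03 as reported, was -0.01 without Sca-1- replicate 4. H2-DMb2 and the third H2-Ob probe are limited by signal over background.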
